A study of Drosophila melanogaster with 9 samples.

Results

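The identity of the indirect flight muscle of Drosophila melanogaster is set by a small group of transcription factors and RNA-binding proteins, of which 10 were considered here: salm, salr, vg, ewg, Mef2, exd, hth, sd, bru1 and how. They were chosen by name, as the genes for which the array annotation was to be searched by symbol and by Entrez gene identifier. That search found 4 of the 10 genes, salm, salr, vg and ewg, which have 6 of the 18769 probe sets tested (1 each for salm and salr, 2 each for vg and ewg). Their Entrez gene identifiers are 34569 (salm), 34568 (salr), 36421 (vg) and 30975 (ewg). The genes lie on chromosome arms 2L (salm, salr) and 2R (vg) and on the X chromosome (ewg). No probe set named Mef2, exd, hth, sd, bru1 or how, so these 6 genes are not analysed here, and with bru1 and how both splicing regulators drop out. The regulators followed here are therefore transcription factors and a cofactor, 4 of the 11982 genes named on the array. Lists of other genes are described beside them.

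The arrays held RNA of the indirect flight muscle of males aged 1 to 2 days, kept at 25 °C, with 3 genotypes and 3 arrays per genotype. Canton-S is a wild-type laboratory strain. Act88FKM88 flies carry a null allele of Act88F, the gene for the actin of this muscle, and Mhc7 flies carry an allele of the muscle myosin heavy chain gene Mhc that leaves the flight muscle without this protein. No driver, transgene or treatment is named for any group, and the sources used here do not give the genetic background of the mutant stocks. Arrays are named by genotype and replicate number, and their number limits the precision.

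In the developing fly, spalt major (salm) and spalt-related (salr) encode zinc finger proteins that switch a muscle from the tubular type of the leg to the fibrillar, stretch-activated type of the flight muscle. Vestigial (vg) is a cofactor that acts with the TEAD protein Scalloped and is needed for flight muscle development. Erect wing (ewg), the fly relative of the mammalian factor NRF-1, is needed for the formation of the dorsal longitudinal flight muscles and acts in neurons as well. Most of this work was done in pupae. The comparisons ask whether adult muscle that lacks its actin or its myosin heavy chain still carries the transcripts of these factors at the wild-type level.

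The labels and tissue were checked on marker genes. Act88F lay between 11.0 and 11.8 (log2) in the Act88FKM88 arrays and between 14.1 and 14.4 in all others. No probe set named Mhc, so the Mhc7 label was not checked. The 6 measured markers of indirect flight muscle were all far above background. Their mean was 11.6 to 12.0 in Act88FKM88 and 12.0 to 12.3 in the other arrays. That mean includes Act88F, the mutated gene. The remaining markers, fln, TpnC4, up, sls and Prm, each had a higher mean in Act88FKM88 than in Canton-S. Markers of jump muscle, a tubular muscle beside the flight muscle, were present too and uneven, with the mean of 3 genes from 6.64 to 9.01 (Canton-S), 8.08 to 10.33 (Act88FKM88) and 7.16 to 8.10 (Mhc7). The 95th percentile of all values was 7.26 to 7.47 (Canton-S), 7.57 to 7.96 (Act88FKM88) and 7.77 to 8.15 (Mhc7), higher in both mutants on the deposited scale.

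Background was read from 125 probe sets of odorant and gustatory receptor genes, which are chemosensory genes not known from muscle. A probe set was called near background in a genotype if its mean there was at or below the 95th percentile of these receptors, which was 3.26 (Canton-S), 3.17 (Act88FKM88) and 3.19 (Mhc7). By this rule both ewg probe sets were near background in all 3 genotypes. The salm probe set lay far above it, salr and the brighter vg probe set lay moderately above it, and the dimmer vg probe set lay just above it. Values of different probe sets cannot be ranked as transcript amounts, because each probe set has its own affinity.

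**Figure D1:**
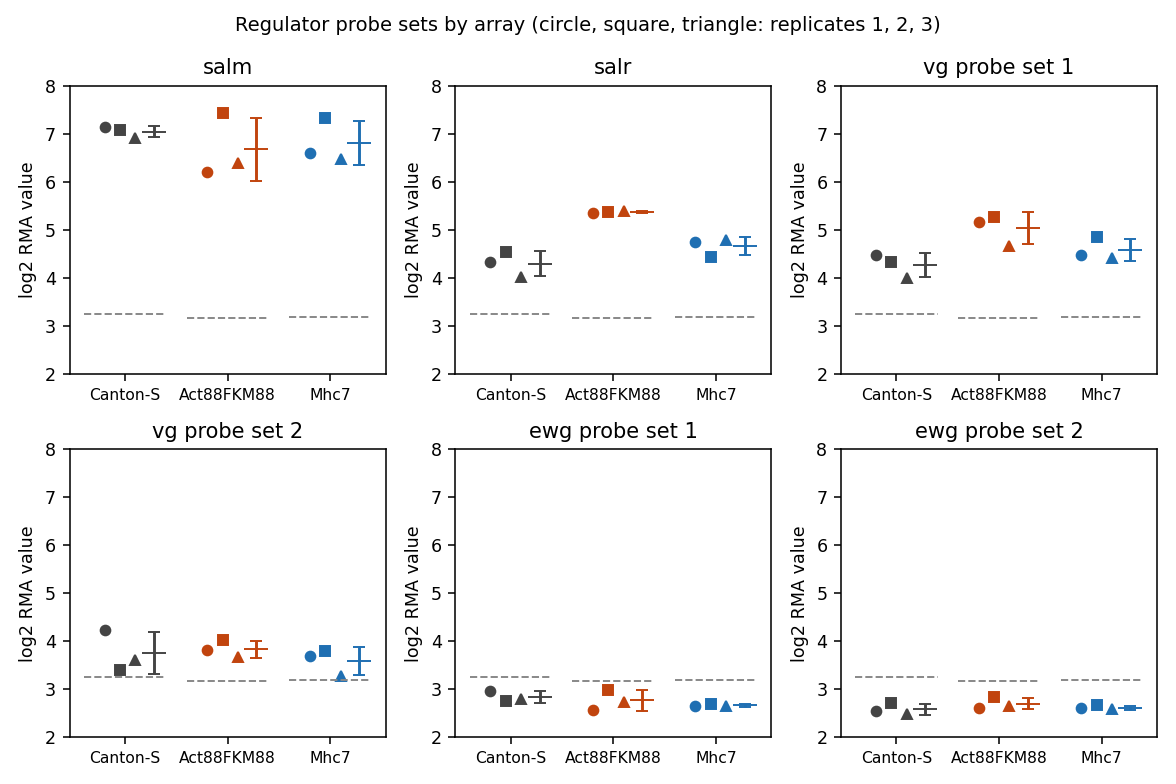
Log2 RMA value of each regulator probe set in each of the 9 arrays, with replicates 1, 2 and 3 as circle, square and triangle. Bars give the mean ± SD (n = 3), and the dashed lines the 95th percentile of receptor probe sets in each genotype. The 3 Act88FKM88 values of salr, 5.36 to 5.40, lie above all other salr values, and all ewg values lie below the dashed lines.

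salr was the regulator that differed most clearly. Its log2 level was 4.33, 4.54 and 4.02 in Canton-S 1, 2 and 3, 5.36, 5.37 and 5.40 in Act88FKM88, and 4.75, 4.45 and 4.80 in Mhc7. The Act88FKM88 arrays were nearly equal to each other and all above every other array, while Mhc7 and Canton-S overlapped through Mhc7 2. Against Canton-S, salr rose in Act88FKM88 by 1.08 ± 0.14 (SE, n = 3 arrays per genotype; limma, adjusted p = 0.00475), which is 2.11-fold with a 95% confidence interval from 1.70 to 2.62. In bulk muscle, more cells that express a gene and more RNA per cell cannot be told apart.

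In Mhc7 the salr difference from Canton-S was 0.37 ± 0.14, or 1.29-fold (interval 1.04 to 1.60; limma, adjusted p = 0.219). It did not pass after adjustment over all probe sets, although 2 of the 3 Mhc7 arrays lay above all Canton-S arrays. The mutants were also compared directly. salr was 1.64-fold higher in Act88FKM88 than in Mhc7 (log2 difference 0.71 ± 0.14, interval 1.32 to 2.04 in fold; limma, adjusted p = 0.0346), higher in 3 of 3 arrays and without overlap. This passed at an adjusted p under 0.1 but stayed under the 2-fold minimum. The adjusted p by limma was 0.120 without Act88FKM88 1, 0.112 without Mhc7 2 and 0.105 with quantile normalization repeated over the arrays.

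The 2-fold mark lies close to the salr value in Act88FKM88. Without Canton-S 3, the lowest array, the difference was 0.94 (limma, adjusted p = 0.0100), so the gene missed the 2-fold minimum while it kept its adjusted p. The same occurred with quantile normalization repeated (0.94, limma adjusted p = 0.0274) and with each array's intensity trend removed (0.97, limma adjusted p = 0.0184). Whichever of the 9 arrays was left out, the adjusted p stayed under 0.1, and so it did in 9 other settings, SAM included (false discovery rate 0.0609).

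salm, the paralogue that lies next to salr on chromosome arm 2L, did not follow it. Its log2 level was 7.14, 7.09 and 6.92 in Canton-S, 6.20, 7.43 and 6.40 in Act88FKM88, and 6.60, 7.33 and 6.48 in Mhc7. In each mutant, array 2 lay above all Canton-S arrays and the other 2 arrays lay below all of them. The mean difference was -0.37 ± 0.32 in Act88FKM88 (0.773-fold, interval 0.471 to 1.27; limma, adjusted p = 0.664) and -0.25 ± 0.32 in Mhc7 (0.844-fold, interval 0.514 to 1.39; limma, adjusted p = 0.788). Both intervals are wide and include no difference, which does not show that salm was level.

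The spread of salm was large among all probe sets. Most of those are dimmer than salm, and salm was not set against probe sets of like level. Its SD was 0.12 (Canton-S), 0.66 (Act88FKM88) and 0.46 (Mhc7), and its residual SD of 0.47 was at or above that of 96.1% of all probe sets. The 2 arrays where salm was high, Act88FKM88 2 and Mhc7 2, also had the highest 95th percentile of their genotype, 7.96 and 8.15. Within Canton-S, and between the other arrays of each mutant, salm was lower where that percentile was higher. The part of array scale in the salm spread was not tested. The salm difference depended on single arrays and on scale. It was -0.75 in Act88FKM88 without Act88FKM88 2 and -0.13 without Act88FKM88 1, and in Mhc7 it was -0.51 without Mhc7 2 and -0.085 without Mhc7 3. With quantile normalization repeated it was -0.73 in Act88FKM88 and -0.72 in Mhc7, and with intensity trends removed -0.66 and -0.67. No setting gave an adjusted p below 0.167 for salm in either mutant.

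Because both genes were read on the same arrays, salr and salm were set against each other within each array, as deviations from their own Canton-S means. In Act88FKM88 the salr deviation exceeded the salm deviation by 1.91, 0.69 and 1.75 in arrays 1, 2 and 3. In Mhc7 the excess was 0.90, -0.13 and 1.06, and in Canton-S it was -0.07, 0.21 and -0.14. All 3 Act88FKM88 arrays lay above all Canton-S arrays, whereas Mhc7 2 fell within the Canton-S range. The mean excess was 1.45 ± 0.66 (SD, n = 3) in Act88FKM88 and 0.61 ± 0.65 in Mhc7, a description for which no test was made.

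**Figure D2:**
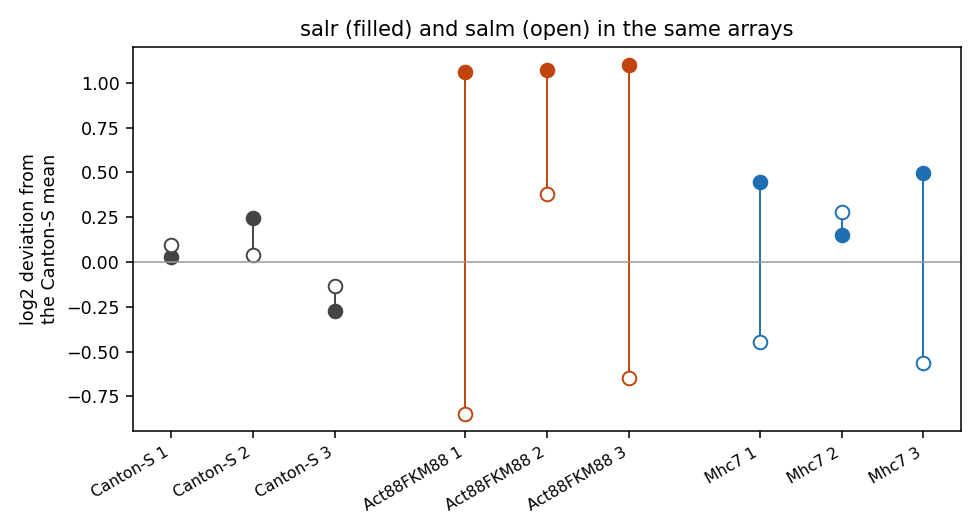
Log2 deviation of salr (filled) and salm (open) from their own Canton-S means in each of the 9 arrays, joined within an array. The salr deviation is 1.06 to 1.10 in Act88FKM88, while that of salm is -0.85, 0.38 and -0.65 in the same arrays.

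The annotated protein-coding neighbour of salr on its other side, CG14926, is an uncharacterized gene. Its level was 3.16 in Canton-S, below the receptor percentile, and its difference was -0.09 ± 0.08 in Act88FKM88 (limma, adjusted p = 0.688) and 0.01 ± 0.08 in Mhc7 (limma, adjusted p = 0.966). At that level a change in CG14926 would not be readily detectable. The neighbours of vg are Nmda1 and NAT1, a translation factor gene. Their differences in Act88FKM88 were 0.20 ± 0.17 (limma, adjusted p = 0.664) for Nmda1 and 0.17 ± 0.09 (limma, adjusted p = 0.481) for NAT1.

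For vg, the 2 probe sets gave different values in Act88FKM88, with intervals that overlap, and the difference between the probe sets was not tested. The brighter 1 read 4.49, 4.33 and 4.01 in Canton-S, 5.17, 5.28 and 4.66 in Act88FKM88, and 4.47, 4.84 and 4.42 in Mhc7. All Act88FKM88 arrays lay above all Canton-S arrays, by a gap of 0.17, and Mhc7 overlapped with both. The difference in Act88FKM88 was 0.76 ± 0.19, or 1.70-fold (interval 1.26 to 2.29; limma, adjusted p = 0.0768). It passed on adjusted p and not on the 2-fold minimum. The dimmer vg probe set read 4.24, 3.40 and 3.62 in Canton-S, 3.82, 4.03 and 3.67 in Act88FKM88, and 3.70, 3.81 and 3.27 in Mhc7. Act88FKM88 overlapped with Canton-S and with Mhc7 in this probe set, and Mhc7 with Canton-S although Mhc7 3 lay below all Canton-S arrays, with a difference of 0.08 ± 0.22 in Act88FKM88 (1.06-fold, interval 0.751 to 1.50; limma, adjusted p = 0.914).

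The adjusted p of the brighter vg probe set was lost in 7 of the 9 fits that left out 1 array and in 4 of 9 other settings, with a range from 0.0215 with a replicate block to 0.224 without Act88FKM88 1. It was kept when Act88FKM88 3 or Mhc7 2 was left out. Which transcripts each vg probe set reads was not determined, and the difference between their values makes the vg value uncertain. Set against each other within arrays, as deviations from their Canton-S means, the brighter vg probe set exceeded the dimmer by 0.83, 0.73 and 0.47 in Act88FKM88 and by 0.25, 0.52 and 0.63 in Mhc7, beside -0.27, 0.41 and -0.13 for Canton-S. In Mhc7 the brighter vg probe set differed from Canton-S by 0.31 ± 0.19 (1.24-fold, interval 0.916 to 1.67; limma, adjusted p = 0.495) and the dimmer by -0.16 ± 0.22 (0.895-fold, interval 0.634 to 1.26; limma, adjusted p = 0.804). Between the mutants the brighter probe set gave 0.46 ± 0.19 (limma, adjusted p = 0.346).

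ewg could not be followed in these samples. The brighter of its probe sets read 2.98, 2.75 and 2.79 in Canton-S, 2.58, 3.00 and 2.74 in Act88FKM88, and 2.65, 2.70 and 2.65 in Mhc7. The other ranged from 2.49 to 2.83 over all 9 arrays. Every one of the 18 ewg values lay below the receptor percentile of its own array. The Mhc7 values of the brighter probe set all lay below those of Canton-S, by a gap of 0.05, with a difference of -0.17 ± 0.11 (limma, adjusted p = 0.520). At this level differences within background are read as background, and a change of ewg was not detectable.

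Counted over the 6 regulator probe sets, 1 passed in Act88FKM88 against Canton-S, where 1.81% of all probe sets passed, and it was higher. Without a fold minimum 2 passed, against 5.08% of all probe sets, and for 2 the genotypes did not overlap, against 19.8%. In Mhc7 against Canton-S none passed by limma at either rule, where 2.79% and 7.11% of all probe sets passed, 1 had an unadjusted p under 0.05 (16.8% of all probe sets), and SAM called none. The genotypes did not overlap for 1, against 22.1%. Between the mutants none passed with the 2-fold minimum by limma or by SAM, against 1.79%, and 2 had an unadjusted p under 0.05 (13.2% of all). Without a fold minimum 1 passed there, against 3.94%, and 1 did not overlap, against 18.2%. With 6 probe sets, a single one decides whether such a share lies above or below that of the array. The comparisons of each mutant with Canton-S share the Canton-S arrays and are not independent.

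**Figure D3:**
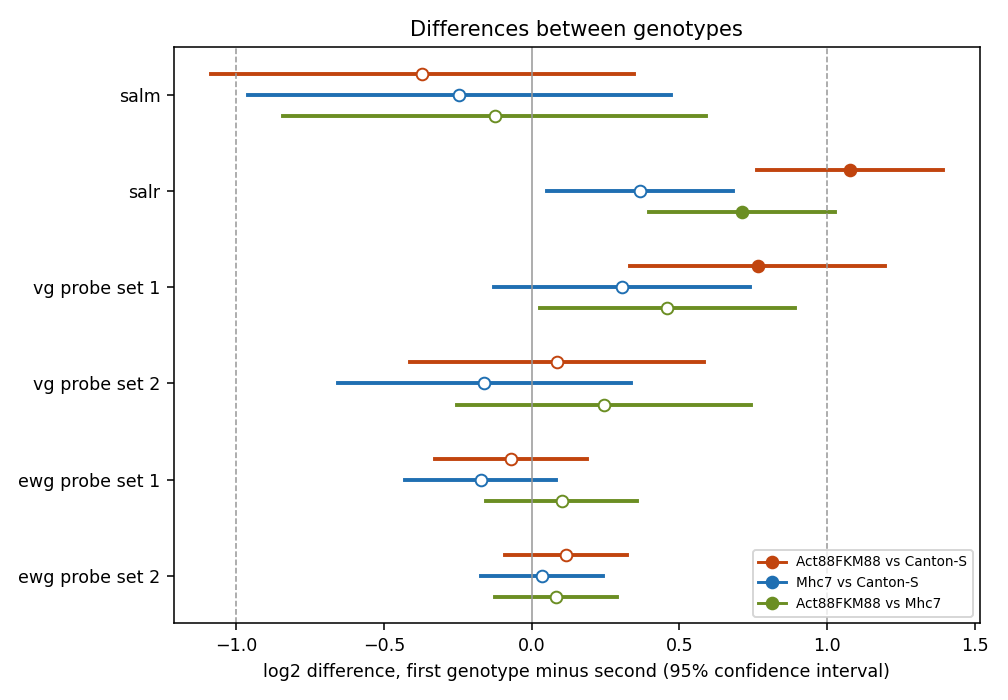
Log2 difference of each regulator probe set between genotypes, first minus second, with the 95% confidence interval. Filled points have an adjusted p under 0.1 and dashed lines mark 2-fold. Only salr in Act88FKM88 against Canton-S, at 1.08, lies beyond 2-fold with an adjusted p under 0.1.

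**Figure D4:**
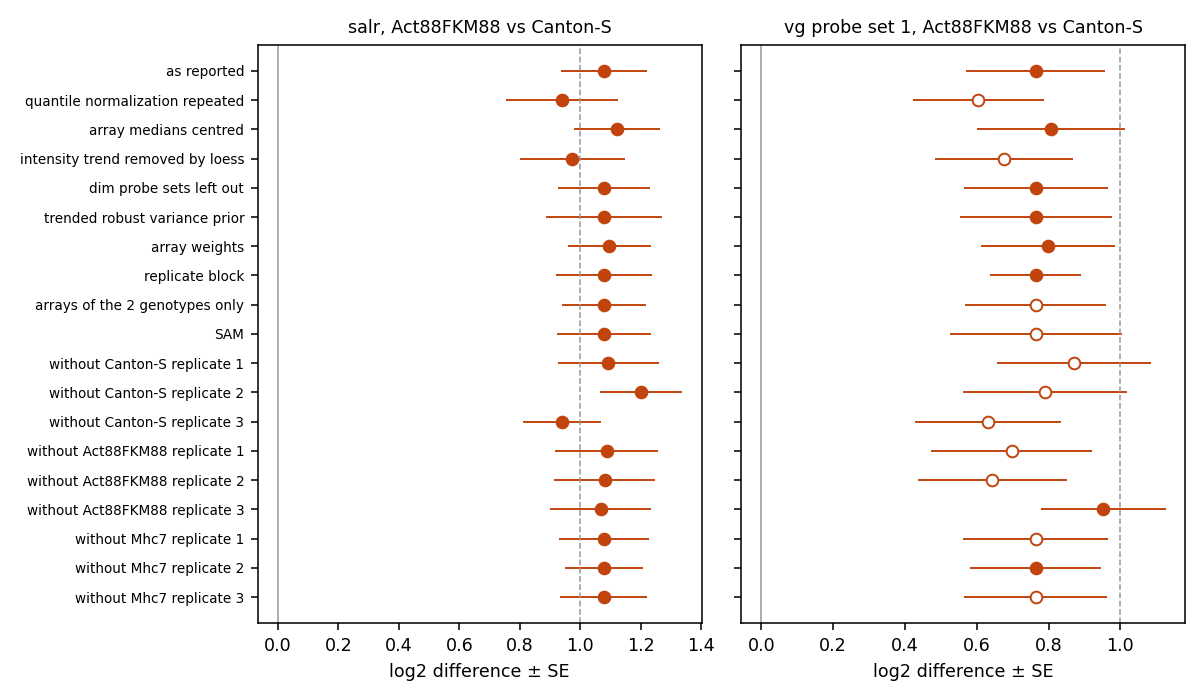
Log2 difference between Act88FKM88 and Canton-S of salr and of the brighter vg probe set, with its SE, as reported and under each alternative. Filled points have an adjusted p (for SAM, a false discovery rate) under 0.1. For salr all points are filled and lie from 0.94 to 1.20, and for vg they lie from 0.60 to 0.95 and 11 alternatives are open.

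The genes whose pattern over the 9 arrays was nearest to that of salr were scyl, Sfxn2 and pncr011:3L, out of 11981 genes compared. Nearness was the root mean square difference of log2 deviations from each gene's own mean, and was 0.13 for scyl, 0.15 for Sfxn2 and 0.16 for pncr011:3L. scyl encodes a growth inhibitor that is induced by hypoxia, and its mean was 6.01 (Canton-S), 7.15 (Act88FKM88) and 6.39 (Mhc7). Sfxn2 belongs to the sideroflexin family of mitochondrial carriers and had means of 4.80, 5.81 and 5.28. pncr011:3L is a non-coding RNA gene, with means of 4.37, 5.52 and 4.60. Each was highest in Act88FKM88 and lowest in Canton-S, as salr was. This order follows from their being picked for nearness to salr on these same arrays and is no separate result. On the same measure salr lay 0.30 from the brighter vg probe set and 0.74 from salm.

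Genes listed as part of the fibrillar programme downstream of the spalt genes were present at high levels in all genotypes. Their dependence on the spalt genes was not tested here, nor whether each is particular to fibrillar muscle. Of 14 measured, 2 rose and 1 fell in Act88FKM88, where 1.81% of all probe sets passed, and 4 rose in Mhc7, where 2.79% did. Zasp66, a Z-disc protein gene, rose by 2.11 ± 0.13 in Act88FKM88 (limma, adjusted p = 7.12e-05) and by 2.02 ± 0.13 in Mhc7 (limma, adjusted p = 0.000101). Mlp60A, a muscle LIM protein gene, rose by 1.23 ± 0.17 in Act88FKM88 (limma, adjusted p = 0.00576). It missed the 2-fold minimum with quantile normalization repeated (0.71; limma, adjusted p = 0.0249) and with intensity trends removed (0.86; limma, adjusted p = 0.0118). The gene that fell was Act88F itself, by 2.80 ± 0.17. In Mhc7 the myofilin gene Mf, for a thick filament protein, rose by 1.22 ± 0.25 (limma, adjusted p = 0.0264), while a second Mf probe set gave -1.27, so the direction of Mf depends on the probe set. Leaving out Canton-S 1 (limma, adjusted p = 0.111) or Mhc7 3 (limma, adjusted p = 0.105) ended that call.

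The other members past the threshold in Mhc7 were the formin gene Fhos (1.18 ± 0.17) and Mlp60A (1.12 ± 0.17), which like TpnC4 and fln are named here after their values were seen. The other Fhos probe sets gave 0.06 and 1.28 in Mhc7, so Fhos too depends on the probe set. Fhos, which acts in myofibril assembly, differed by 0.90 ± 0.17 in Act88FKM88 (limma, adjusted p = 0.0263), under 2-fold in this brightest probe set. The other Fhos probe sets gave -0.01 and 1.19 in Act88FKM88. The troponin C gene TpnC4, a marker of stretch-activated muscle, differed by 0.14 in Act88FKM88 (limma, adjusted p = 0.674) and by -0.68 in Mhc7 (limma, adjusted p = 0.0111), and flightin (fln), a thick filament protein gene, by 0.25 and 0.39. The median of the list was 0.34 in Act88FKM88 and 0.48 in Mhc7, beside -0.011 and -0.0034 over all genes. With intensity trends removed the list medians turned to -0.039 and -0.022.

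Genes of tubular or larval muscle showed no call in either mutant among 5 measured by limma or SAM. At an unadjusted p under 0.05, 1 differed in Act88FKM88 and 0 in Mhc7, where 14.6% and 16.8% of all probe sets did. The list median was 0.96 in Act88FKM88 and 0.074 in Mhc7, beside -0.011 and -0.0034 over all genes. When 1 array was left out, the Act88FKM88 median ranged from 0.29 (without Act88FKM88 2) to 1.53 (without Act88FKM88 3). The muscle LIM protein gene Mlp84B differed by 0.98 ± 0.42 in Act88FKM88 (limma, adjusted p = 0.319), the actin gene Act87E by 0.96 ± 0.67 (limma, adjusted p = 0.579), and the troponin C gene TpnC41C by 1.06 ± 0.88 (limma, adjusted p = 0.650). In Mhc7 the differences were 0.64 ± 0.42 for Mlp84B (limma, adjusted p = 0.515), 0.61 ± 0.67 for Act87E (limma, adjusted p = 0.737) and -1.52 ± 0.88 for TpnC41C (limma, adjusted p = 0.451). The SE of 0.88 is that of TpnC41C only. It reflects variation between arrays of the same genotype, estimated over all 3 genotypes together. The jump muscle marker mean was 8.59, 10.33 and 8.08 in Act88FKM88 1, 2 and 3 and 6.64, 8.35 and 9.01 in Canton-S 1, 2 and 3, while salr was level across the Act88FKM88 arrays. The part of jump muscle RNA in the salr and salm values was not tested.

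**Figure D5:**
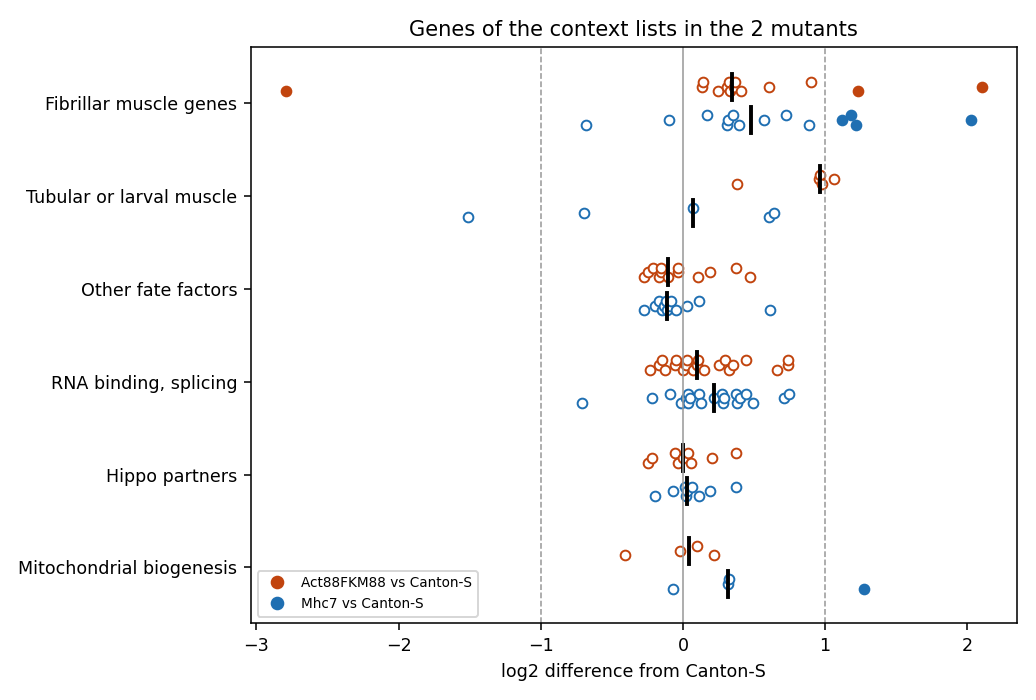
Log2 difference from Canton-S of each measured gene of 6 lists in Act88FKM88 and Mhc7, with filled points past the threshold, black bars at the list medians and dashed lines at 2-fold. Calls stand in the fibrillar muscle list and, for Mhc7, in the mitochondrial list, and the medians of the fate factor and Hippo lists lie between -0.11 and 0.03.

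Among 13 other measured muscle fate factors, 5 were above background in at least 1 genotype and none passed in either mutant by limma or SAM. An unadjusted p under 0.05 was found for 3 in Act88FKM88 and 0 in Mhc7, beside array shares of 14.6% and 16.8%. zfh1, which encodes a zinc finger protein that marks muscle precursor cells, went from 2.80 in Canton-S to 3.27 in Act88FKM88 (0.47 ± 0.13; limma, adjusted p = 0.0973) and lay near background in Canton-S and Mhc7. The LIM homeobox gene ap, a fate factor of the direct flight muscles, had -0.28 ± 0.09 in Act88FKM88 (limma, adjusted p = 0.166). In Mhc7 the smallest p values were those of Him, an inhibitor of Mef2 (-0.27 ± 0.12; limma, adjusted p = 0.318), and of the FGF receptor gene htl (0.61 ± 0.30; limma, adjusted p = 0.352). Twist (twi), another precursor factor, was near background in all genotypes, as were ap and Him, so the differences of ap and Him are read as background.

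Of 9 measured genes of the Hippo pathway, which controls Yorkie, the other partner of Scalloped, none passed in either mutant by limma or SAM, and 1 in each had an unadjusted p under 0.05 (14.6% and 16.8% over the array). yki, the Yorkie gene, differed by 0.37 ± 0.19 in Act88FKM88 (limma, adjusted p = 0.415). fj, for a kinase of the Golgi that acts upstream in the pathway, differed by -0.25 ± 0.08 in Act88FKM88 (limma, adjusted p = 0.157) and -0.19 ± 0.08 in Mhc7 (limma, adjusted p = 0.242). The kinase gene hpo differed by 0.37 ± 0.20 in Mhc7 (limma, adjusted p = 0.417).

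In the absence of bru1 and how, other RNA-binding and splicing factors were read, with 21 measured, of which 18 were above background. None passed with the 2-fold minimum in either mutant by limma or SAM, and an unadjusted p under 0.05 was found for 4 in Act88FKM88 and 6 in Mhc7, beside 14.6% and 16.8% of all probe sets. Without a fold minimum 2 passed in Act88FKM88 and 4 in Mhc7, against 5.08% and 7.11% of all probe sets. Hrb87F, an hnRNP A family gene, had a mean of 5.17 (Canton-S), 5.91 (Act88FKM88) and 4.46 (Mhc7). The differences from Canton-S were 0.74 ± 0.18 (limma, adjusted p = 0.0688) and -0.71 ± 0.18 (limma, adjusted p = 0.0591), both under 2-fold. Between the mutants Hrb87F rose by 1.45 ± 0.18 in Act88FKM88 (limma, adjusted p = 0.00471), the 1 call of this list, and it passed whichever of the 9 arrays was left out. The splicing activator gene tra2 differed by 0.66 ± 0.18 in Act88FKM88 (limma, adjusted p = 0.0968) and 0.71 ± 0.18 in Mhc7 (limma, adjusted p = 0.0600). When 1 array was left out, tra2 kept an adjusted p under 0.1 in 2 of 9 fits in Act88FKM88 and 5 of 9 in Mhc7. The Hrb87F differences from Canton-S kept it in 4 of 9 fits in each mutant.

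Mitochondrial biogenesis factors were included because the mammalian relative of ewg controls such genes. Of 4 measured, none passed in Act88FKM88 by limma or SAM, with 0 at an unadjusted p under 0.05, and 1 rose in Mhc7. TFAM, the packaging factor of mitochondrial DNA, went from 7.59 in Canton-S to 8.86 in Mhc7 (1.27 ± 0.14; limma, adjusted p = 0.00167) and was at 7.81 in Act88FKM88 (0.22 ± 0.14; limma, adjusted p = 0.551). Between the mutants it was 1.05 ± 0.14 lower in Act88FKM88 (limma, adjusted p = 0.00628), and without Act88FKM88 3 that difference was -0.95, under the 2-fold minimum. The TFAM rise in Mhc7 was 0.61 with quantile normalization repeated and 0.76 with intensity trends removed, both under 2-fold with adjusted p of 0.00195 and 0.00174 by limma. PolrMT, the mitochondrial RNA polymerase gene, differed by -0.41 ± 0.31 in Act88FKM88 (limma, adjusted p = 0.616).

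Markers of other tissues that a dissected muscle can hold were read beside the regulators. Tendon and epidermis markers had a mean over 6 genes of 6.01 to 6.27 (Canton-S), 4.92 to 5.61 (Act88FKM88) and 4.88 to 5.48 (Mhc7). This mean was lower in every mutant array than in any Canton-S array, but its genes did not move together. Cpr64Aa (12.17, 9.75 and 9.37, genotypes ordered as above), Cpr76Bd (7.44, 5.22 and 5.27) and shot (7.33, 6.17 and 5.86) were lower in both mutants. Tsp96F was higher in both (3.86, 4.63 and 4.90). The defining factors sr and grh were near background in all genotypes. Neuron and glia markers had means of 3.35 to 3.48, 3.37 to 3.84 and 3.26 to 3.70 over 6 genes, with repo and para near background in all genotypes. Means of 2 tracheal markers were 3.25 to 3.56, 2.99 to 3.39 and 3.27 to 3.93. Hemocyte markers (5 genes) had 4.14 to 4.40, 4.20 to 4.59 and 3.96 to 4.14, fat body markers (5 genes) 4.53 to 6.14, 5.42 to 5.78 and 5.20 to 6.29, and oenocyte markers (3 genes) 4.72 to 5.11, 4.88 to 5.10 and 4.95 to 5.42. The part of these tissues in the regulator values was not tested.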

How the data were processed

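RNA of indirect flight muscle was hybridised to Affymetrix Drosophila Genome 2.0 arrays by the authors, from 6 µg of total RNA per array. The deposited values are log2 expression, 1 per probe set and array, made by RMA (background correction, normalization and summary over probes) per the submitters' processing notes; neither its version nor whether the 9 arrays were normalized together is given in the sources used here. Of 18952 probe sets, 183 controls were left out and 18769 were tested, whatever their level. Of these, 13647 carry 1 gene name in the platform annotation, 402 several and 4720 none.

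Genotype means came from a linear model of the 9 arrays (lmFit and eBayes of limma 3.58.1, under R 4.3.3), with Benjamini-Hochberg adjustment over all probe sets. Passing meant an adjusted p under 0.1 and at least 2-fold, the rule the study states for SAM, which was written anew as an alternative. Only what passed is said to have risen or fallen. All p-values are two-sided. Arrays are described as biological replicates per the labels. A gene with several probe sets was represented in lists by the brightest.

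The regulators, lists, markers and tests were chosen with earlier results of these data known. Named are all regulator probe sets, the mutated genes, per list up to 2 members each way past the threshold or the 2 with the smallest p, and the 3 genes nearest to a regulator that passed. The pipeline was tested on simulated data. Same-numbered arrays did not consistently deviate together (r from -0.32 to 0.43 over 9 pairs, beside -0.38 to 0.27 over 18 other pairs), so replicate numbers were not taken as pairs. The highest r, 0.43, was that of Act88FKM88 2 and Mhc7 2, the arrays where salm was high. For Act88FKM88 against Canton-S, a replicate block lowered the SE of salm from 0.32 to 0.22. It lowered that of the brighter vg probe set from 0.19 to 0.12. Gene sequences were not used here.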

Additional observations from a re-analysis of the deposited data

How the results depend on the processing

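Of 318 alternative values of regulator probe sets, 304 kept their direction and side of the threshold, 3 lost the call (salr in Act88FKM88, given above) and 11 turned sign, all of them small and without a call. The turned values, with their ranges when 1 array was left out, were those of the dimmer vg probe set in Act88FKM88 (-0.093 to 0.33) and in Mhc7 (-0.34 to 0.083), the brighter ewg probe set in Act88FKM88 (-0.18 to 0.025) and between the mutants (-0.011 to 0.20), the dimmer ewg probe set in Mhc7 (-0.016 to 0.098), and salm between the mutants (-0.50 to 0.14, and 0.012 with intensity trends removed). The cause of these turns was not tested. The count of 1 regulator probe set past the threshold in Act88FKM88 became 0 with quantile normalization repeated, 0 with intensity trends removed, and 0 to 1 when 1 array was left out, and it was 2 with no fold minimum. Without a fold minimum the count of 2 became 1 at an adjusted p under 0.05, with quantile normalization repeated, with intensity trends removed, with the 6 arrays of the compared genotypes alone and with SAM, and lay between 1 and 2 when 1 array was left out. Between the mutants the count was 1 with no fold minimum, 0 with quantile normalization repeated and 0 to 1 when 1 array was left out. A replicate block left the 3 counts at 1, 0 and 0, with salr in Act88FKM88 at 1.08 (limma, adjusted p = 0.0146) and the brighter vg probe set at 0.76 (limma, adjusted p = 0.0215). Over the whole array, the 340 probe sets past the threshold in Act88FKM88 became 172 with SAM and 218 without Canton-S 1. The 524 in Mhc7 became 266 with quantile normalization repeated and 293 with intensity trends removed, and the 336 between the mutants became 192 without Act88FKM88 1 and 213 without Mhc7 3.

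The settings were applied to the lists after seeing the data. In Mhc7 the 4 genes past the threshold in the fibrillar muscle list became 1 with quantile normalization repeated, 2 with intensity trends removed and 2 with all probe sets of a gene averaged. Mf in Mhc7 was then 0.62 (quantile) and 0.71 (trends removed), without a call. The count of 1 mitochondrial gene became 0 in Mhc7 and 0 between the mutants with quantile normalization repeated or intensity trends removed, and 0 to 1 between the mutants when 1 array was left out. TFAM in Act88FKM88 turned to -0.18 with quantile normalization repeated and -0.14 with intensity trends removed. With the array median as the reference the same number of regulator probe sets, 2, lay near background. Probe sets near background limit what can be seen of ewg, and 3 arrays per genotype limit the rest.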
